A study of Aspergillus luchuensis with 6 samples.

Results

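The stretch described here is the part of scaffold 1 (sequence DF126447.1) from 1.0 to 1.1 Mb, positions 1000001 to 1100000 on both strands, in Aspergillus luchuensis mut. kawachii, a mould used to make white koji. Within it, positions with 2 or more CAGE tags summed over the 6 libraries were joined into a start cluster when 20 bp or less apart on the same strand. This gave 1113 start clusters of 36260 in the whole table, 637 on the plus and 476 on the minus strand. A cluster was counted in the stretch when its most used position, its peak, lay inside. The cluster at 999934 to 1000041 crossed the lower edge with its peak outside and was left out, with 20 of its 74 tags inside, and no cluster crossed the upper edge. The stretch was picked because it was already known to hold a long series of neighbouring start clusters lower in the disruptant. Every difference between the strains inside it is therefore given as a description and supports no statement about the stretch. Tests of single clusters were run over the whole table, and their results inside the stretch serve only to describe it.

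CAGE (cap analysis of gene expression) sequences the capped 5′ ends of transcripts, so that each tag marks the base at which a transcript began. Libraries were made from total RNA of frozen rice koji, steamed rice grown through with the mould. The KsirD group held 3 libraries of the strain labelled sirD, in which the gene for sirtuin D was disrupted, and the control group held 3 libraries of the strain labelled ctrl4. Each group was 1 strain. The labels used here do not give the construct, the number of transformants, the age of the koji or whether each library had a culture of its own, so the spread between libraries may be technical.

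Sirtuins are NAD-dependent deacylases, several of which remove acetyl groups from histones in fungi, and histone acetylation is one of the marks that accompany open promoters. In filamentous fungi neighbouring genes can be transcribed from both strands and share a promoter region. A start cluster may be narrow, with 1 or 2 dominant bases, or broad, with many weak ones. CAGE libraries also hold thinly spread tags inside transcripts, and a weak cluster need not be a promoter.

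The table listed 3336690 to 3580777 tags per KsirD library and 3148498 to 3275687 per control library. The stretch took 40859 to 42088 tags in the KsirD libraries and 44000 to 46294 in the control libraries, which was 4.61% ± 0.0698 of the scaffold 1 tags in KsirD and 5.44% ± 0.178 in the control (SD, n = 3 each). Start clusters held 96.7% ± 0.382 of the tags of the stretch in KsirD and 96.7% ± 0.428 in the control (SD, n = 3 each). The rest lay at 8641 positions with a single tag over all libraries. The table listed positions throughout the stretch, with no interval longer than 272 bp without one. Neither a genome nor an annotation on the coordinates of the table was used, so no gene is named, no sequence is shown and the level of the disrupted gene is not analysed here.

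Most transcripts that began in the stretch began in a few places. Of the 1113 clusters, 127 had enough tags to be tested between the strains and 986 lay below the count filter. Levels are given as CPM (counts scaled to equal library size, after TMM scaling of the tested clusters). In the control, 14 tested clusters reached 100 CPM, 58 lay between 10 and 100 CPM and 55 under 10 CPM. The 2 most abundant clusters held 45.8% of the summed control level of the stretch and the 10 most abundant held 77.2%. Tested clusters were spread over both strands, 68 on the plus and 59 on the minus strand, with a median interval of 156.5 bp between them and 21 intervals over 1 kb.

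**Figure D1:**
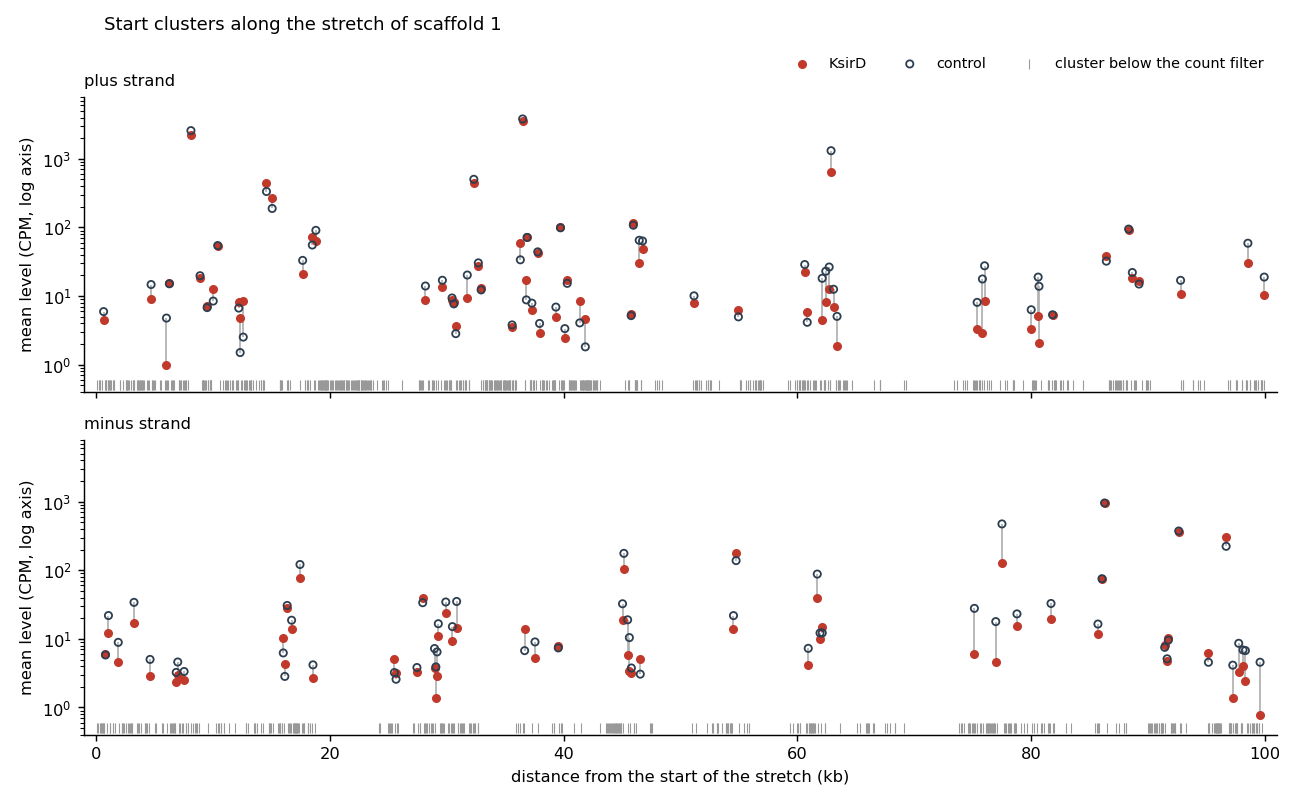
Mean level of each tested start cluster in CPM (log axis) against distance from the start of the stretch in kb, with the plus strand above and the minus strand below. Filled points are KsirD and open points control (means of 3 libraries), a grey line joins the 2 means of a cluster, and ticks at the bottom mark the 986 clusters below the count filter; the clusters with the 2 highest levels were both on the plus strand, and the strongest minus-strand clusters lay towards the right end.

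The 2 strongest start sites and the strongest site on the minus strand were not called between the strains, while the site with the third highest control level, at 1062814 to 1063041, was called lower and is described with the long lower series. The plus-strand cluster at 1036418 to 1036616 had 3723, 3387 and 3509 CPM in the KsirD libraries and 3727, 3457 and 4254 CPM in the control libraries. The groups overlapped, and the log2 difference of KsirD minus control was −0.11 (standard error, SE, 0.13). The plus-strand cluster at 1007880 to 1008736 had 2309, 2187 and 2247 CPM in KsirD and 2685, 2738 and 2306 CPM in the control, again with overlapping groups (log2 difference −0.20, SE 0.13). The strongest minus-strand site, at 1086167 to 1086357, had 880, 1044 and 979 CPM in KsirD and 755, 1075 and 1036 CPM in the control (log2 difference 0.02, SE 0.15). In RNA from whole koji, less RNA per cell and fewer cells that make a transcript cannot be told apart.

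The other abundant clusters did not share a direction. The plus-strand cluster at 1032001 to 1032579 averaged 442 ± 35.7 CPM in KsirD and 503 ± 29.8 CPM in the control, and the minus-strand cluster at 1092394 to 1092701 averaged 361 ± 71.5 CPM in KsirD and 373 ± 43.1 CPM in the control (SD, n = 3 each). Both had overlapping groups and were not called. The plus-strand neighbours at 1014436 to 1014881 and 1014936 to 1015690 were called higher, as was the minus-strand cluster at 1096253 to 1096838. Those called lower were the plus-strand cluster at 1062814 to 1063041 and, on the minus strand, that at 1077146 to 1077652. These 2 were the only clusters among the 10 most abundant that were called lower, and each stood in one end of the long lower series described below.

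A cluster was called when its adjusted p was below 0.05 in edgeR's quasi-likelihood test, fitted and adjusted over all 4083 tested clusters of the table. By this rule 37 of the 127 tested clusters were called lower in KsirD, 29.1%, where 14.0% of all tested clusters were. Another 10 were called higher, 7.87%, against 10.4% of all tested clusters, and 80 were not called. Because the stretch was chosen from these calls, nothing is read from the shares. The median log2 difference was −0.37 over the 127 clusters, 0.02 over the 2372 tested clusters of the rest of scaffold 1 and −0.00 over all tested clusters. With upper-quartile scaling the calls of the whole table were split into 468 lower and 550 higher, against 573 lower and 426 higher with TMM, while the stretch had 34 lower and 13 higher.

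Lower clusters were found at all levels. Among the 14 clusters with a control mean of 100 CPM or more, 4 were called lower and 3 higher. Between 10 and 100 CPM, 23 of 58 were lower and 1 higher, and under 10 CPM, 10 of 55 were lower and 6 higher. Calls were not counted by level over the whole table, where 14.0% of all tested clusters were called lower and 10.4% higher. Nothing is read from the counts by level. The precision differed with level, as the median SE of the log2 difference was 0.15, 0.24 and 0.37 in these 3 classes, so smaller differences could be called among abundant clusters. The log2 difference of the 37 lower clusters ranged from −2.71 to −0.64 (median −1.28). Of the 127 tested clusters of the stretch, 26 were called lower by at least 2-fold, where 8.99% of all tested clusters of the table were. Over the 127 clusters, all KsirD libraries lay below all control libraries in 48, where 21.3% of all tested clusters of the table did, and above them in 15, where 18.4% did. The groups did not overlap in 36 of the 37 lower clusters, which mostly restates the calls and adds no support to them. The exception was the plus-strand cluster at 1046347 to 1046573, with 18.5, 42.6 and 30.03 CPM in KsirD and 34.2, 74.7 and 86.0 CPM in the control.

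**Figure D2:**
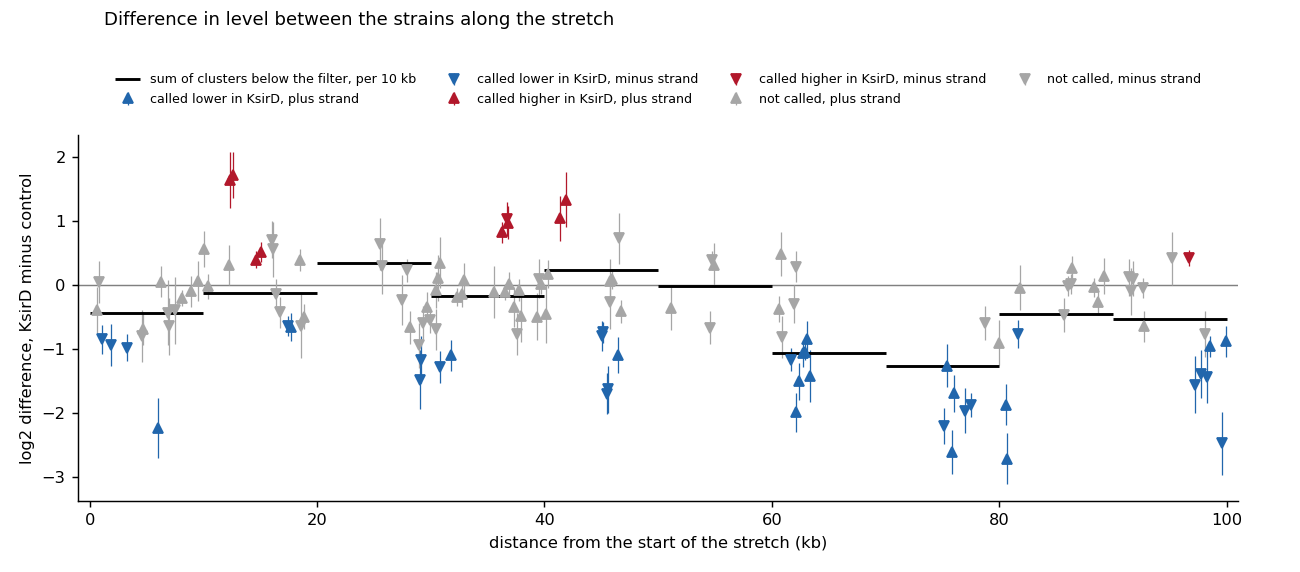
Log2 difference in level, KsirD minus control, of the 127 tested clusters against distance from the start of the stretch in kb (bars: SE of the fit; upward triangles plus strand, downward triangles minus strand; blue called lower, red called higher, grey not called). Black lines give the log2 ratio of the summed tags of clusters below the count filter in each 10-kb window; they are lowest, at −1.07 and −1.27, in the windows that hold the long lower series.

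With clusters ordered by their start, the longest unbroken series of lower clusters ran from 1062089 to 1077652. It held 12 neighbouring tested clusters, 9 on the plus and 3 on the minus strand. The uncalled minus-strand cluster at 1062071 to 1062158 overlapped the first member. Its peak, at 1062127, lay past the peak of that member, at 1062120. Ordered by peak, the series would therefore be broken after its first member. The series was made of 6 clusters at 1062089 to 1063430 and 6 at 1075103 to 1077652, with 11.7 kb between them in which no cluster was tested. Summed over the 12, the level was 826 ± 61.2 CPM in KsirD and 1971 ± 178 CPM in the control (SD, n = 3 each), a log2 ratio of −1.25. The number of neighbours in the series depended on the processing. It was 7 with upper-quartile scaling, 6 with DESeq2, 3 with no count filter, and between 6 and 13 with 1 library left out (6 without KsirD replicate 1, 7 without control replicate 1 and 7 without control replicate 3).

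The first 6 clusters all lay on the plus strand around 1 strong start site. That site, at 1062814 to 1063041, had 663, 580 and 671 CPM in the KsirD libraries and 1267, 1325 and 1349 CPM in the control libraries. The groups were far apart, and the log2 difference was −1.04 (SE 0.13, 2.06-fold lower). Upstream of it, the cluster at 1062089 to 1062151 had 5.97, 4.38 and 3.27 CPM in KsirD and 23.3, 13.4 and 17.7 CPM in the control (log2 difference −1.99, SE 0.31). It lay lower relative to the control than the strong site did. The clusters between these 2, at 1062424 to 1062459 and 1062638 to 1062735, had log2 differences of −1.50 (SE 0.29) and −1.07 (SE 0.21).

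Downstream of the strong site the clusters were smaller and their calls less stable. The cluster at 1063062 to 1063142 had 8.05, 7.59 and 5.35 CPM in KsirD and 12.1, 11.3 and 14.3 CPM in the control (log2 difference −0.84, SE 0.28). The cluster at 1063368 to 1063430 had 1.49, 2.33 and 1.78 CPM in KsirD and 5.91, 5.18 and 4.08 CPM in the control (log2 difference −1.42, SE 0.41). In both, the groups did not overlap, but DESeq2 did not call them, with adjusted p = 0.0812 and 0.0627, nor did edgeR with no filter (adjusted p = 0.149 and 0.0893). With upper-quartile scaling the first had adjusted p = 0.0599 in edgeR. Left-out libraries also ended their calls: for the first, adjusted p was 0.0692 without KsirD replicate 2, 0.156 without KsirD replicate 3 and 0.105 without control replicate 3. For the second it was 0.0756 without KsirD replicate 1, 0.0602 without KsirD replicate 3 and 0.0582 without control replicate 1. On the minus strand, next to the start of this group, the cluster at 1061578 to 1061752 was also called lower, at 39.2 ± 9.23 CPM in KsirD and 88.0 ± 6.27 CPM in the control (SD, n = 3 each). The minus-strand clusters at 1061868 to 1061978 and 1062071 to 1062158, within 1 kb of the strong site, were not called and had log2 differences of −0.30 (SE 0.30) and 0.29 (SE 0.24).

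The other end of the series held start clusters on both strands. Its strong site was the minus-strand cluster at 1077146 to 1077652, with 158, 115 and 113 CPM in KsirD and 463, 352 and 605 CPM in the control. The highest KsirD value lay far below the lowest control value, and the log2 difference was −1.88 (SE 0.19, 3.67-fold lower). The minus-strand cluster beside it, at 1076941 to 1077078, had a log2 difference of −1.96 (SE 0.36). At 1075103 to 1075194 on the minus strand the level was 5.97, 6.71 and 5.35 CPM in KsirD and 18.3, 27.4 and 37.8 CPM in the control (log2 difference −2.20, SE 0.28).

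The 3 plus-strand clusters of this end were weak in KsirD. The cluster at 1075794 to 1075931 had 2.68, 3.79 and 2.08 CPM in KsirD and 11.8, 18.6 and 22.8 CPM in the control, the largest difference of the series (log2 difference −2.61, SE 0.34, 6.12-fold lower). The neighbours at 1075359 to 1075463 and 1075999 to 1076168 had log2 differences of −1.26 (SE 0.33) and −1.69 (SE 0.30). With positions joined within 5 bp the clusters at 1075794 to 1075931 and 1075999 to 1076168 had log2 differences of −3.32 and −2.52. Joining within 50 bp merged them into a cluster with a log2 difference of −1.91, and positions of 10 or more tags gave −2.63 for the second. All 6 clusters of this end had their highest control value in control library 3, and the control coefficient of variation had a median of 29.7%, against 13.7% in the 6 clusters at 1062089 to 1063430 and 19.8% over the tested clusters of the stretch. Without control replicate 3 the strong site at 1077146 to 1077652 had a log2 difference of −1.67 and the cluster at 1075794 to 1075931 one of −2.41, and both were still called.

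**Figure D3:**
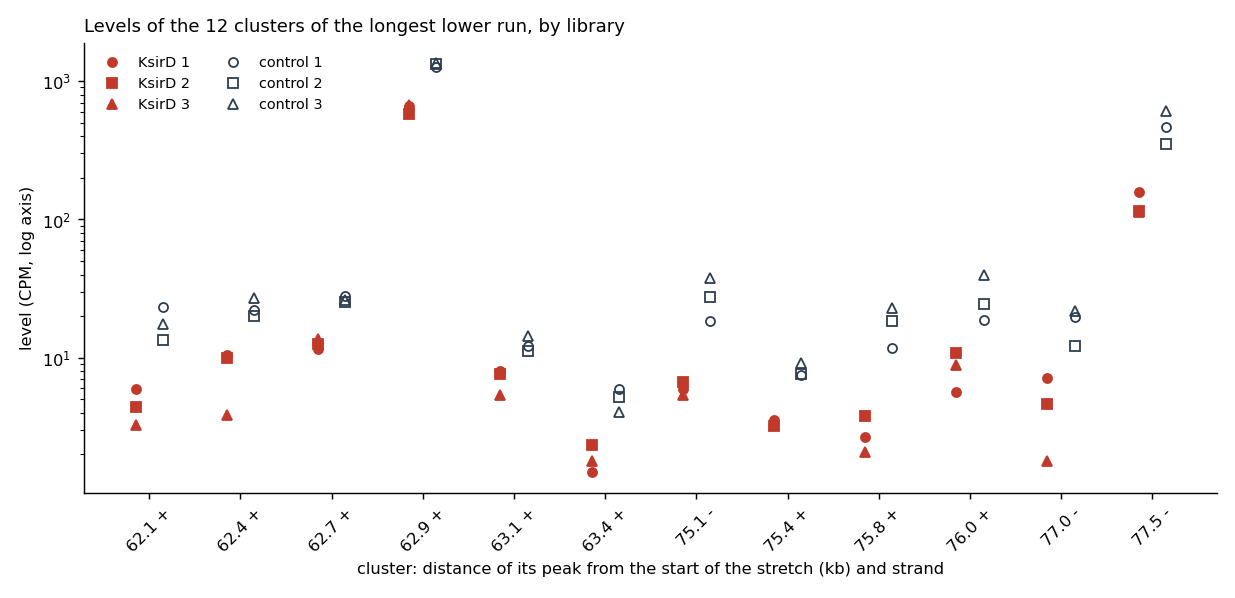
Level in CPM (log axis) of the 12 clusters of the longest lower series in each library, KsirD filled on the left and control open on the right of each pair, with the distance of the peak from the start of the stretch in kb and the strand on the horizontal axis. The libraries of the strains do not overlap in any of the 12, which were picked by their calls. The triangle of control library 3 is the highest control value in each of the last 6.

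Between the ends of the series the start signal was thin but was lower in KsirD as well. From 1063431 to 1075102 there were 50 clusters below the count filter, 4.28 per kb, against 9.86 per kb over the stretch. Their tags summed to 33, 42 and 32 in the KsirD libraries and 141, 98 and 130 in the control libraries, or 10.5 ± 1.495 CPM in KsirD and 39.3 ± 8.17 CPM in the control (SD, n = 3 each). The groups were far apart, and the log2 ratio of −1.90 was close to those of the tested clusters at the far end of the series. The 27 minus-strand clusters had 14, 13 and 11 tags in KsirD and 87, 59 and 76 in the control (log2 ratio −2.66), and the 23 plus-strand clusters had 19, 29 and 21 in KsirD and 54, 39 and 54 in the control (log2 ratio −1.21).

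The largest of these weak clusters lay on the minus strand at 1068285 to 1068315. It had 2, 2 and 1 tags in the KsirD libraries and 38, 9 and 20 tags in the control libraries, a wide spread between control libraries. Positions with a single tag, which entered no cluster, moved the same way in this interval, with 17, 28 and 32 tags in KsirD and 64, 81 and 75 in the control. Not all weak clusters there were lower: at 1064167 to 1064180 on the plus strand there were 4, 4 and 5 tags in KsirD and 3, 7 and 12 in the control, and at 1069243 to 1069282 there were 4, 4 and 6 in KsirD and 8, 3 and 6 in the control, with overlapping groups.

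Beyond the series, lower clusters were found in 12 other places, 7 of them with at least 2 neighbouring clusters. The plus-strand clusters at 1080595 to 1080630 and 1080656 to 1080782 followed the series. The second had 2.39, 1.17 and 2.68 CPM in KsirD and 9.01, 11.9 and 20.8 CPM in the control, the lowest log2 difference of the stretch (−2.71, SE 0.40, 6.56-fold lower), and the first had one of −1.87 (SE 0.32). Joined within 50 bp, the first and second merged into a cluster with a log2 difference of −2.13. Control library 3 was the highest in both. A minus-strand cluster at 1081597 to 1081709 followed, with a log2 difference of −0.77 (SE 0.22). Between them and the series, the clusters at 1078724 to 1078812 and 1079895 to 1080035 had log2 differences of −0.59 (SE 0.26) and −0.90 (SE 0.36) and were not called.

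A group of 4 minus-strand clusters at 1044999 to 1045648 was called lower around a start site of intermediate level. The main one, at 1045123 to 1045407, had 99.3, 93.7 and 125 CPM in KsirD and 200.5, 136 and 192 CPM in the control (log2 difference −0.74, SE 0.17). The small cluster upstream at 1045436 to 1045488 had 5.97, 4.38 and 7.14 CPM in KsirD and 28.0, 11.9 and 17.01 CPM in the control (log2 difference −1.70, SE 0.32), and so lay lower relative to the control than the main one. Joined within 50 bp it merged with the main one, and the merged cluster had a log2 difference of −0.79. On the opposite strand, the cluster at 1045930 to 1046071 averaged 116 ± 18.3 CPM in KsirD and 108 ± 12.8 CPM in the control (SD, n = 3 each, log2 difference 0.10, SE 0.16). It was not called. Of the 9 other tested clusters within 1 kb of it, 5 were called lower, where 14.0% of all tested clusters of the table were. Neighbours of strong sites were not counted over the table, and nothing is read from this count.

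The upper end of the stretch held another 4 neighbouring lower clusters on both strands, from 1098297 to 1099990. The plus-strand cluster at 1098462 to 1098583 had 27.4, 31.2 and 32.1 CPM in KsirD and 61.2, 54.3 and 61.2 CPM in the control (log2 difference −0.96, SE 0.17), with groups far apart and little spread within each. The minus-strand cluster at 1099551 to 1099582 had 2, 4 and 2 tags in KsirD and 16, 13 and 14 tags in the control (log2 difference −2.48, SE 0.49). At the lower end, the minus-strand cluster at 1003159 to 1003372 averaged 17.3 ± 3.11 CPM in KsirD and 34.0 ± 3.57 CPM in the control. The plus-strand cluster at 1006010 to 1006084 had 3, 3 and 4 tags in KsirD and 19, 12 and 14 tags in the control (log2 difference −2.23, SE 0.47). With positions joined within 50 bp, the joined cluster that held its peak had a log2 difference of −0.80 and was not called (edgeR adjusted p = 0.0559). In the middle, the minus-strand cluster at 1030684 to 1030916 and the plus-strand cluster at 1031712 to 1031858 were lower, with log2 differences of −1.28 (SE 0.25) and −1.09 (SE 0.24). The second lay next to the uncalled strong site at 1032001 to 1032579.

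The 10 clusters called higher lay apart from the long lower series, 8 of them on the plus strand. Log2 differences ranged from 0.40 to 1.73 (median 1.01). Of the 127 tested clusters of the stretch, 5 were called higher by at least 2-fold, where 4.80% of all tested clusters of the table were. In all 10 the KsirD libraries lay above the control libraries, which again mostly restates the calls. A series of 4 on the plus strand ran from 1012297 to 1015690. Its strong members were called but differed little: the cluster at 1014436 to 1014881 had 453, 445 and 424 CPM in KsirD and 347, 321 and 334 CPM in the control (log2 difference 0.40, SE 0.13). The cluster at 1014936 to 1015690 had 278, 265 and 269 CPM in KsirD and 238, 167 and 162 CPM in the control (log2 difference 0.52, SE 0.15). Upstream, the weak clusters at 1012297 to 1012344 and 1012573 to 1012665 had larger log2 differences, 1.65 (SE 0.44) and 1.73 (SE 0.36). The cluster at 1012297 to 1012344 lost its call without KsirD replicate 1 (edgeR adjusted p = 0.0584). Joined within 50 bp it merged with that at 1012190 to 1012275, and the merged cluster was not called (log2 difference 0.69, edgeR adjusted p = 0.0687). The cluster at 1014936 to 1015690 lost its call without control replicate 2 (edgeR adjusted p = 0.0915) and without control replicate 3 (adjusted p = 0.102). The log2 difference of the cluster at 1012573 to 1012665 was 1.11 with positions joined within 50 bp, 2.47 with joining within 5 bp and 3.11 with positions of 10 or more tags, and it was called in each.

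Higher weak clusters also surrounded the strongest start site of the stretch, which was itself not called. Of 6 tested clusters within 1 kb of the peak of the cluster at 1036418 to 1036616, 3 were called higher and none lower. The one just upstream on the same strand, at 1036225 to 1036392, had 54.6, 60.1 and 64.8 CPM in KsirD and 35.4, 30.8 and 35.03 CPM in the control (log2 difference 0.83, SE 0.17). When positions were joined within 50 bp it merged with the strong site and the log2 difference was −0.0531. The minus-strand cluster at 1036650 to 1036687 had 15.2, 12.2 and 14.3 CPM in KsirD and 7.15, 7.62 and 5.44 CPM in the control (log2 difference 1.04, SE 0.27), and the plus-strand cluster at 1036780 to 1036838 averaged 17.3 ± 3.67 CPM in KsirD and 8.79 ± 1.04 CPM in the control (SD, n = 3 each). Joining within 50 bp also merged the cluster at 1036780 to 1036838 with that at 1036860 to 1037085. The merged cluster had a log2 difference of 0.17 and was not called (edgeR adjusted p = 0.510).

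The remaining higher clusters were small or close to the threshold. The plus-strand clusters at 1041198 to 1041393 and 1041836 to 1041875 had log2 differences of 1.04 (SE 0.35) and 1.34 (SE 0.43). DESeq2 called neither, with adjusted p = 0.0691 and 0.0891. The minus-strand cluster at 1096253 to 1096838 had 309.9, 289 and 302 CPM in KsirD and 224, 233 and 214 CPM in the control, a small difference between well separated groups (log2 difference 0.43, SE 0.13). The clusters at 1014436 to 1014881 and 1096253 to 1096838 lost their calls with most left-out libraries, as did the clusters at 1041198 to 1041393 and 1041836 to 1041875. With 1 library left out the stretch had 33 to 37 lower and 6 to 8 higher clusters, with 6 higher without KsirD replicate 2 and 6 without control replicate 2.

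Neighbours on opposite strands did not always move alike. In 20 pairings a minus-strand tested cluster had its peak 87 to 288 bp upstream of that of a plus-strand one, an arrangement in which transcription diverges. In 3 of these both members were called lower, in 1 both higher, in 4 only 1 was called and in 12 neither. The pairings held 38 clusters, because the minus-strand clusters with peaks at 1030492 and 1036671 each entered more than once. Pairings were not counted over the whole table, where 14.0% of all tested clusters were called lower and 10.4% higher. Nothing is read from these counts. The minus-strand cluster with its peak at 1017455 averaged 78.0 CPM in KsirD and 121 CPM in the control, and its plus-strand partner at 1017682 averaged 21.01 CPM in KsirD and 33.1 CPM in the control. Their log2 differences were close, at −0.64 and −0.66. By contrast, the clusters with peaks at 1061936 and 1062120, at the start of the long lower series, had log2 differences of −0.30 on the minus and −1.99 on the plus strand. Whether the members of a pair differ was not tested.

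Clusters below the count filter were numerous and carried little. They held 8419 of the 251934 cluster tags of the stretch, 3.34%, with a median of 4 tags over the 6 libraries and at most 72. Over the stretch they summed to 383 ± 23.7 CPM in KsirD and 480 ± 43.6 CPM in the control (SD, n = 3 each, log2 ratio −0.32). Outside the long lower series the log2 ratio of their sum was −0.19. By 10-kb window it was −1.07 at 1060001 to 1070000 and −1.27 at 1070001 to 1080000, and the groups did not overlap in either. In the other 8 windows it lay between −0.53 and 0.34. The groups also did not overlap in the windows from 1000001 (−0.43), 1080001 (−0.45) and 1090001 (−0.53). Nor did they in the window from 1040001, where KsirD was higher (0.24).

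Of the other long intervals without a tested cluster, 2 had overlapping groups and 1, with few tags, was lower in KsirD after scaling. The second longest, 6.47 kb from 1018970 to 1025437, held 80 weak clusters, 73 of them on the plus strand, downstream of the plus-strand cluster at 1018757 to 1018969. They had 80, 126 and 131 tags in KsirD and 89, 105 and 75 in the control, with overlapping groups (log2 ratio 0.23). The cluster before them averaged 64.3 ± 12.05 CPM in KsirD and 90.7 ± 27.2 CPM in the control and was not called. The third, 5.58 kb from 1054998 to 1060578, had 66, 60 and 64 tags in 40 weak clusters in KsirD and 54, 46 and 55 in the control, also with overlapping groups after scaling (log2 ratio 0.18). The fourth, 4.06 kb from 1047052 to 1051113, was nearly empty, with 9 weak clusters and 6, 5 and 10 tags in KsirD and 17, 15 and 10 in the control. Scaled to CPM its groups did not overlap, at 2.07 ± 0.796 CPM in KsirD and 4.42 ± 0.951 CPM in the control (SD, n = 3 each, log2 ratio −1.09). A single weak cluster held 35 of the 63 tags of this interval.

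The stretch was set against the other 20 bins of scaffold 1 of 100 kb each, of which the last is incomplete. In what the control transcribed it lay within their range, and towards the upper end for several measures. Its 1113 clusters compare with 787 to 1338 in the other bins, and 5 of these had more. Its summed control level of 13935 ± 523 CPM (SD, n = 3) was the fourth highest, with 5628 to 23647 CPM in the others, and the KsirD level was 11891 ± 161 CPM. The median control level of its tested clusters, 14.7 CPM, was exceeded in 1 bin (7.88 to 17.4 CPM in the others), while 16 bins had more than its 14 clusters of 100 CPM or more. Its strongest cluster, at 3813 CPM in the control, was exceeded in 2 bins. The summed control level of its weak clusters, 480 CPM, was also exceeded in 2 bins. The median width of its tested clusters, 106 bp, lay in the middle of the range of 88 to 133 bp.

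The difference between the strains, for which the stretch was chosen, was outside the range of the other bins as drawn, though not for all measures with shifted bins. Its 37 lower clusters compare with 4 to 26 (median 14), and its share of 29.1% with 3.64% to 19.8%. Without the 12 clusters of the long series, 25 of 115 were lower, 21.7%. Its 10 higher clusters lay within the range of 5 to 22. The log2 ratio of the summed level was −0.23, against −0.16 to 0.29 in the other bins. The median log2 difference was −0.37, against −0.20 to 0.22, and the log2 ratio of the weak clusters −0.32, against −0.14 to 0.43. With bins shifted by 50 kb the stretch was divided, and the bin from 950001 had 22 lower of 133 tested clusters and the bin from 1050001 had 26 of 100. Their ranks by the number of lower clusters among the shifted bins were 4 and 1. Their median log2 differences were −0.0765 and −0.0990, which ranked 5 and 4 from the lowest. Their summed log2 ratios were −0.0752 and −0.27, ranked 6 and 2, and the bin from 150001 was lowest at −0.41. The weak clusters had log2 ratios of −0.0597 and −0.38, ranked 6 and 1.

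**Figure D4:**
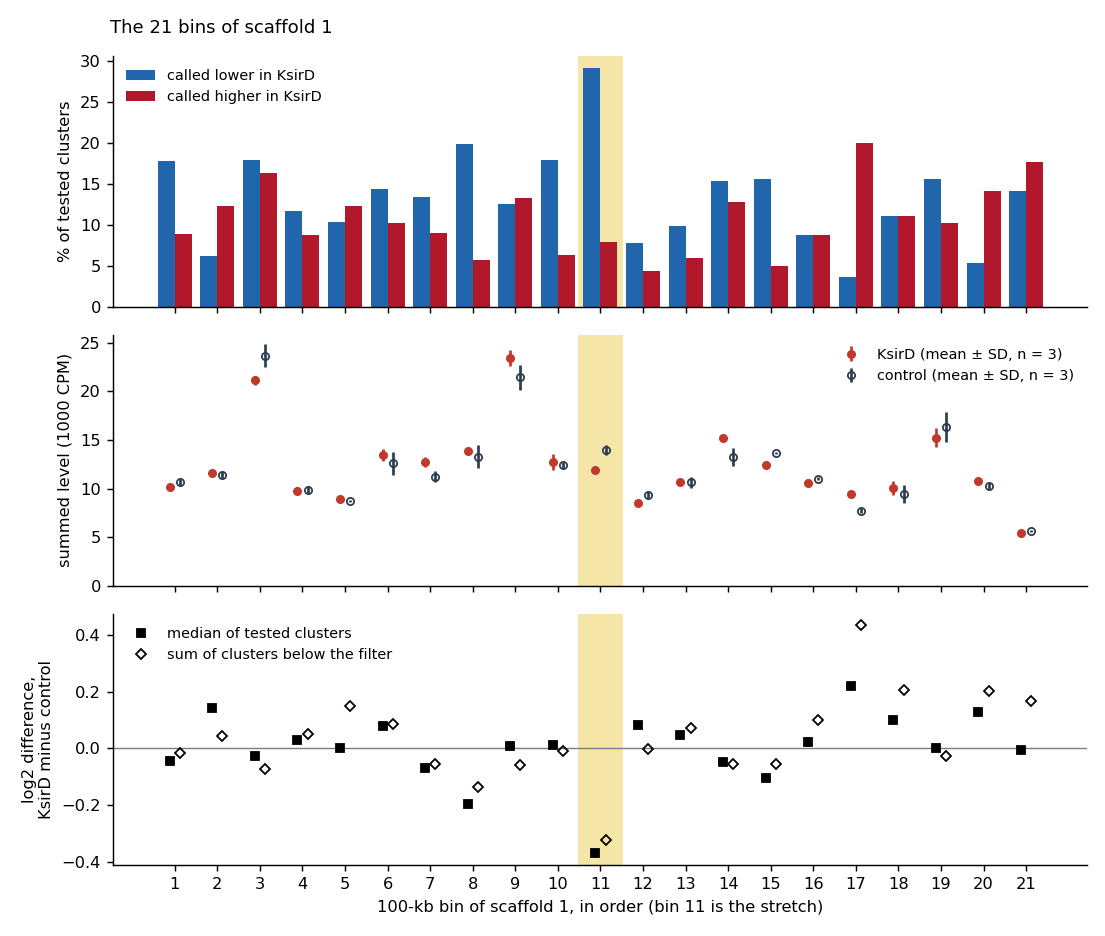
The 21 bins of scaffold 1 in order, with the stretch (bin 11) shaded: the percentage of tested clusters called lower (blue) and higher (red) in KsirD, the summed level in units of 1000 CPM (KsirD filled, control open, mean ± SD, n = 3 each), and the log2 difference as the median of tested clusters (squares) and for the sum of clusters below the filter (diamonds). Bin 11 has 29.1% lower clusters and a control level of 13935 CPM, which is the fourth highest.

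Within clusters, no change in the bases at which transcripts began was called, though most clusters tested for their level did not enter the usage test. Of 38 clusters of the stretch with several tested positions, none was called for changed start-site usage (edgeR's diffSpliceDGE, 4 at an unadjusted p below 0.05), where 1.79% of the 1286 clusters tested over the table were. The smallest adjusted p was 0.273, and it stayed at 0.141 or above with any 1 library left out. No other tool was run for usage. A p above the threshold does not show that the proportions were equal.

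The 2 clusters with the largest shift in the mean position of their tags, among 20 whose shape was measured, were picked after their values were seen. In the weak cluster of the lower series at 1075999 to 1076168, which had no usage test, position 1076013 took 5.26%, 2.70% and 3.33% of the tags in the KsirD libraries and 15.0%, 13.75% and 17.1% in the control libraries. The groups were far apart, and 1076013 was the most used base in the 3 control libraries and in none of the KsirD libraries, which held only 19, 37 and 30 tags in the whole cluster. The mean position of its tags was 18.5 bp further downstream in KsirD. In the abundant cluster at 1032001 to 1032579 the mean position was 1032324.7 ± 0.390 in KsirD and 1032308.6 ± 1.28 in the control (SD, n = 3 each), with an adjusted p of 0.512 in diffSpliceDGE.

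The lower strong sites kept their peak base. In the cluster at 1062814 to 1063041, position 1062880 took 25.2% ± 1.54 of the tags in KsirD and 26.5% ± 1.75 in the control, and position 1062891 took 20.6% ± 0.672 in KsirD and 19.2% ± 1.181 in the control (SD, n = 3 each). It was narrow, since the span from the 10% to the 90% point of its tags was 20 bp in every library. In the cluster at 1077146 to 1077652, position 1077499 took 29.8% ± 2.79 in KsirD and 28.8% ± 0.381 in the control, and the span was 73.0 ± 7.0 bp in KsirD and 62.3 ± 6.43 bp in the control. In each cluster the same base was the peak in all 6 libraries.

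Among the clusters whose shape was measured, those not called for their level also ranged from narrow to broad. None of them was as narrow as the 20 bp of the lower site at 1062814 to 1063041. The strongest site, at 1036418 to 1036616, had a span of 30 bp in every library, with 18.2% ± 1.69 of the tags at position 1036500 in KsirD and 20.3% ± 1.76 in the control. The cluster at 1007880 to 1008736 was broad, with a span of 157 ± 6.43 bp in KsirD and 157 ± 5.20 bp in the control, and 12.6% ± 0.613 and 13.97% ± 0.547 of the tags at position 1008126 in KsirD and the control. In the minus-strand cluster at 1086167 to 1086357, position 1086276 took 15.6% ± 0.873 in KsirD and 18.1% ± 0.513 in the control. The cluster with the largest share at 1 base among the 10 most abundant was that at 1092394 to 1092701, with 34.2% ± 0.914 at position 1092617 in KsirD and 36.0% ± 1.176 in the control.

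**Figure D5:**
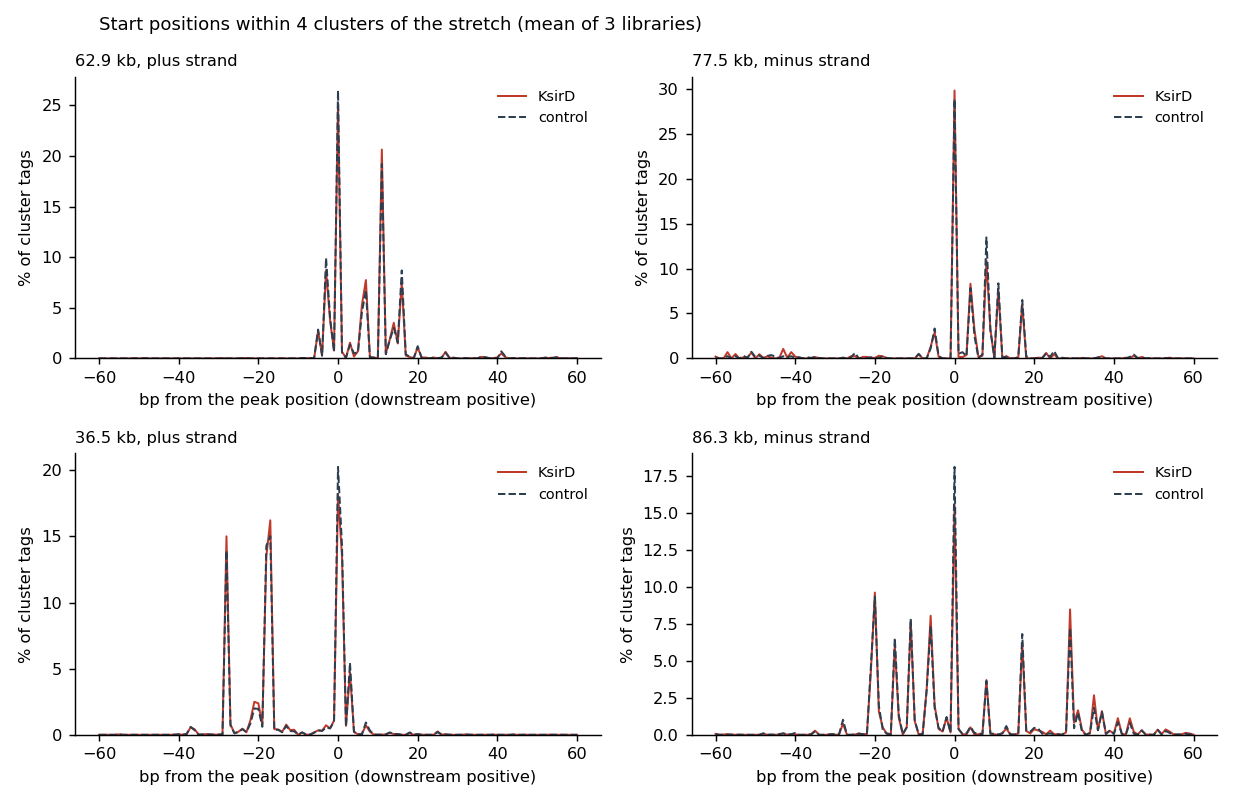
Percentage of the tags of a cluster at each position, by distance in bp from the peak (downstream positive), for the 2 strongest clusters of the lower series (upper panels) and 2 strong clusters that were not called (lower panels), as the mean of 3 KsirD libraries (solid) and 3 control libraries (dashed). The lines lie close together, with 25.2% in KsirD and 26.5% in the control at the peak of the first panel. At the peak of the last panel, the minus-strand cluster at 1086167 to 1086357, the means were 15.6% in KsirD and 18.1% in the control. There each KsirD library lay below each control library.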

How the data were processed

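The authors deposited a table of whole-number CAGE tag counts for each strand and position, whose 6 columns carry the sample descriptions as names. Per the submitters' processing notes the tools were FastQC, BWA and bedtools. Their versions and settings, the build and the treatment of multiply mapping reads were not given in the sources used here, so clusters in repeated sequence could be under- or overcounted. File positions count from 0 and 1 was added.

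Tag counts per cluster over the whole table were filtered with filterByExpr, scaled by TMM and tested by quasi-likelihood in edgeR 4.0.16 (R 4.3.3) on all 6 libraries without covariates, with Benjamini-Hochberg adjustment over 4083 clusters. Start-site usage was tested with diffSpliceDGE on positions with 10 or more pooled tags that also passed filterByExpr. The fits were tested on simulated data. Sums over weak clusters were scaled with the same library sizes and not tested. Replicates of a strain differed by more than counting noise, with chi-square per degree of freedom of 7.20 to 15.9, more than would be seen for 1 library deposited again; this does not show that they came from separate cultures.

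The members and lists were chosen with earlier results of these data known. Named clusters are the 10 most abundant in the control, the longest lower series, and of the other called clusters the 10 lower and 10 higher with the smallest p; others named, and the intervals and windows, were chosen after their values were seen. Alternatives were RLE and upper-quartile scaling, TMM on the scaffolds alone, other filters, cluster definitions and thresholds, DESeq2 1.42.0, a replicate block, shifted bins and left-out libraries.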

Additional observations from a re-analysis of the deposited data

How the results depend on the processing

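The 37 lower calls were made among 127 tested clusters. Their number stayed within 1.5 times under every alternative run. It was lowest, at 26, with an adjusted p below 0.01 or a 2-fold minimum, both of which only select from the 37. The number tested changed as well. Lower calls were 52 of 193 with positions joined within 5 bp, 30 of 115 joined within 50 bp and 36 of 1113 with no filter. Over the whole series of scaffolds, 573 of 4083 clusters were lower in the main run and 790 of 6330 joined within 5 bp. As the stretch was chosen from these calls, nothing is read from how little their number changed. The 10 higher calls became 5 at an adjusted p below 0.01, 5 with a 2-fold minimum and 6 with no filter, and 6 to 8 with 1 library left out (33 to 37 lower). The median log2 difference of −0.37 was −0.27 with upper-quartile scaling, −0.0938 with no filter, where 1113 clusters were tested, −0.24 with positions joined within 50 bp and −0.41 to −0.26 with 1 library left out. The log2 ratio of the summed tags of −0.23 was −0.21 with RLE, −0.13 with upper-quartile scaling, −0.19 with positions joined within 50 bp and −0.26 to −0.19 with 1 library left out. The causes of these shifts were not tested. The ranks of the stretch among the bins, 7 by tested clusters, 1 by called clusters and 4 by control level, were 5, 8 and 6 for the lower and 17, 11 and 15 for the upper of the bins shifted by 50 kb. The number of clusters called for changed usage was 0 under each alternative run for it. Of these, raising the minimum from 10 to 20 pooled tags left 1286 tested clusters and the same smallest adjusted p. It was therefore no separate check.

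Of 574 combinations of the 37 named clusters with an alternative, 42 lost a call and 7 changed sign. Under another cluster definition, a value is that of the cluster that then held the peak of the named one. Such a cluster may be only a part of the named one or may include its neighbours. Cases in which a named cluster was not among the tested clusters of an alternative are left out of these counts. They arose with joining within 5 bp, with the higher tag minimum per position and with the tag minimum per cluster. All concerned clusters called in the main run, such as those at 1063062, 1063368 and 1075359. The 42 therefore do not cover every call that was not recovered. The sign changes were the cluster at 1092394 (−0.15 to 0.14 with 1 library left out; 0.0503 with upper-quartile scaling, 0.14 without KsirD replicate 1, 0.02 without control replicate 2), that at 1086167 (−0.14 to 0.12 with 1 library left out; −0.00359 joined within 5 bp, −0.01 without KsirD replicate 2, −0.14 without control replicate 1) and that at 1036225 (−0.0531 joined within 50 bp). The first 2 were not called in any of these. Scaling moved the median of all clusters by at most 0.10, with upper-quartile scaling.

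With a replicate block the stretch had 41 lower and 11 higher clusters, a median log2 difference of −0.36 and 0 clusters with changed usage. Deviations of same-numbered libraries correlated at 0.100, 0.0615 and 0.0455 across clusters, which are not independent, and other pairs at −0.100 to 0.0486. KsirD library 3 correlated best with control library 2, and no pairing was assumed. Depth limits the clusters below the count filter, which have 4 tags in the median and were described as sums and by their largest members.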

Other observations

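The stretch had 8641 single-tag positions, which entered no cluster. They held 1172, 1474 and 1487 tags in the KsirD libraries and 1526, 1723 and 1259 tags in the control libraries, or 407 ± 50.3 CPM in KsirD and 476 ± 48.5 CPM in the control (SD, n = 3 each), with overlapping groups. Of the 986 clusters below the count filter, 208 had no tag in any KsirD library and 179 had none in any control library.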
